A study of Mus musculus with 113 samples.

Results

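Knockdown (KD) of Rarg, Nr1h3 and Nr2c2 together, with Nr5a2 left untouched, was examined in mouse 8-cell (8C) embryos through 2 KD libraries and the 2 negative control (NC) libraries of the same experiment. These 4 of the 113 samples of the series were chosen by their titles. The embryos were wild type, from superovulated C57BL/6N females mated to PWK/PhJ males according to the methods, and each library came from a small pool of embryos at the 8-cell stage. The siRNA was injected into zygotes, per the labels at 5 μM for each of the 3 target genes in the KD group and at 15 μM of NC siRNA in the control group. Several siRNAs were mixed for each gene. The 3 further groups of the same experiment, with 2 libraries each and the same dose per target, received Nr5a2 siRNA in place of the Rarg, Nr1h3 or Nr2c2 siRNA, and they serve below as the groups in which a single receptor other than Nr5a2 was spared. Injection of siRNA lowers a transcript for a limited time and leaves any protein already made, so none of these groups is a knockout.

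RARG, NR1H3 and NR2C2 are nuclear receptors, transcription factors that bind repeats or single copies of short AGGTCA-like sequences. RARG is a receptor for retinoic acid and NR1H3, also called LXR alpha, a receptor for oxysterols, and both bind DNA together with a retinoid X receptor (RXR). NR2C2, also called TR4, is an orphan receptor that binds direct repeats by itself or with its paralog NR2C1. NR5A2 is an orphan receptor that binds a single extended site as a monomer and is expressed in early embryos together with the other receptors.

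Transcript levels are given as FPKM, fragments per transcript length normalised to the mapped fragments of the library, in the order NC replicate 1, NC replicate 2, KD replicate 1 and KD replicate 2 unless stated. Differences are log2(FPKM + 1) of KD minus NC, a scale that understates the change of low genes, and tests are limma with Benjamini-Hochberg adjustment over 10626 genes. The 4 libraries had 8233 to 8724 genes at 1 FPKM or more. Of 12 markers of the 8-cell embryo, all but Ooep were above 0 in all 4 libraries. Ooep was listed at 0 in KD replicate 1. The 12 markers summed to 448 and 568 FPKM in NC and to 607 and 552 FPKM in KD. The largest part was Dppa4, at 143, 347, 219 and 265 FPKM. Of 14 markers of cumulus and granulosa cells, 12 were listed at 0 in all 4. This list still summed to 15.1 and 4.48 FPKM in NC and 15.3 and 12.6 FPKM in KD, mostly from Amhr2. Blood markers summed to 24.6 and 22.1 FPKM in NC and 23.8 and 12.1 FPKM in KD, nearly all from Hba-a1. The blood markers Hbb-b1 and Ptprc were listed at 0 in all 4 libraries. Markers of oocytes and earlier stages summed to 52.2 and 47.6 FPKM in NC and 30.9 and 63.9 FPKM in KD. Whether any of these transcripts came from other cells was not tested. In pools like these, fewer cells with a transcript and less transcript per cell cannot be told apart. Replicates are separately labelled pools, and libraries with the same replicate number deviated alike (r = 0.278 to 0.513 between groups). Unless a block for the replicate number is named, p-values come from a fit without it. Such p-values mix the spread between replicate numbers with the spread between pools.

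The targeted transcripts were examined first. Nr1h3 (mm9 chr2:91024218-91042991, minus strand) stood at 19.8 and 11.7 FPKM in NC and at 0.373 and 0.222 FPKM in KD. Both KD pools lay far below both NC pools, with a log2 difference of -3.65 ± 0.64 (SE) and an unadjusted p of 0.000138 (limma, adjusted p = 0.868, or 0.278 with the replicate block, which pairs libraries of the same number). Nr2c2 (mm9 chr6:92041384-92123051, plus strand) stood at 10.0 and 2.98 FPKM in NC and at 1.04 and 0.488 FPKM in KD. Again the groups did not overlap, and the log2 difference was -1.93 ± 0.59 (SE), with an unadjusted limma p of 0.00747. The Nr2c2 gene shares 3533 bases with Mrps25 on the other strand, and reads of overlapping genes cannot be told apart in libraries that do not keep the strand.

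Rarg (mm9 chr15:102065369-102087948, minus strand) stood at 17.6 and 2.18 FPKM in NC and at 3.6 and 2.61 FPKM in KD. Here the groups overlapped, since NC replicate 2 was lower than both KD pools. The log2 difference was -0.92 ± 0.87 (SE) with both NC pools and 0.36 without NC replicate 1, so these libraries alone do not show that Rarg mRNA was reduced. The group without Rarg siRNA had 23.8 and 4.54 FPKM of Rarg, again higher in replicate 1. In the separate single KD experiment Rarg stood at 28 and 33 FPKM in NC and at 3.64 and 5.47 FPKM after Rarg siRNA.

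Nr5a2 (mm9 chr1:138740161-138857004, minus strand), which received no siRNA here, stood at 43.5 and 30.5 FPKM in NC and at 45.2 and 31.8 FPKM in KD. Its log2 difference of 0.06 had a 95% interval from -1.07 to 1.18, and it turned to -0.12 when libraries were scaled to their median ratio. The 3 groups with Nr5a2 siRNA held 3.96 to 9.42 FPKM. The Nr5a2-spared group stood 2.50 ± 0.42 (SE) above their mean on the log2 scale (limma adjusted p = 0.0359).

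**Figure D1:**
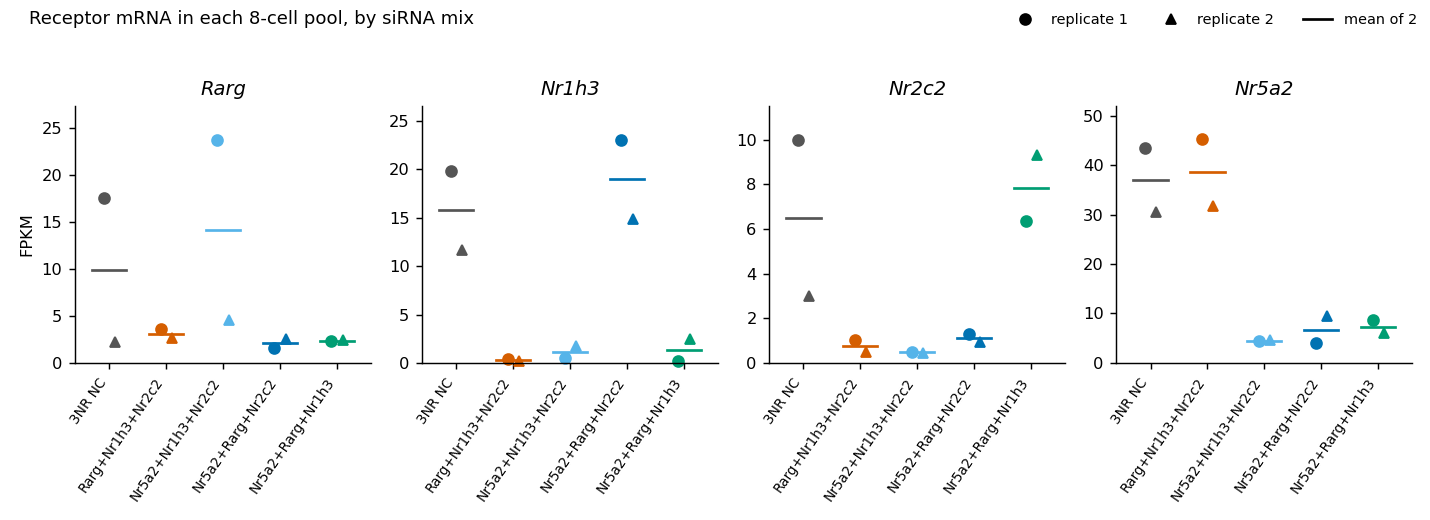
FPKM of the 4 receptor genes (linear vertical axis from 0) in the NC group and the 4 siRNA mixes of the triple KD experiment, with 1 point per library (circle, replicate 1, and triangle, replicate 2) and a bar at the mean of 2. Nr1h3 and Nr2c2 are low in both pools of the Rarg/Nr1h3/Nr2c2 KD, Nr5a2 is at 45.2 and 31.8 FPKM there against 9.42 FPKM or less in the other mixes, and Rarg differs widely between the NC pools.

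The partners and paralogs of the targets were not lower. Rxra, an RXR gene, stood at 2.76 and 1.32 FPKM in NC and at 7.61 and 3.04 FPKM in KD. Rxrb, another RXR gene, stood at 2.93 and 1.35 FPKM in NC and at 3.16 and 3.09 FPKM in KD. Both KD pools were above both NC pools for these genes, but with unadjusted p-values of 0.0985 and 0.453 (limma) neither passed. Nr1h2, the paralog of Nr1h3, overlapped between groups at 51.6, 16.5, 44.1 and 29.0 FPKM. Rarb, a paralog of Rarg, and Nr2c1, the paralog of Nr2c2, overlapped as well, at 1.15, 3.49, 5.84 and 3.02 FPKM and at 0.731, 1.5, 3.35 and 0.469 FPKM. Rara and Rxrg did not reach the minimum of 1 FPKM in any group.

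Across all genes, KD against NC asked how 8-cell transcripts differed after siRNA against these 3 receptors with Nr5a2 spared. No gene passed an adjusted p of 0.05 (0%), nor the study's limits of an adjusted p of 0.01 and a log2 change of 2 (0%), in limma with or without this block. At an unadjusted p under 0.05, limma gave 103 lower genes (0.969%) and 148 higher genes (1.39%), or 161 (1.52%) and 383 (3.6%) with the block. Both KD pools were below both NC pools for 758 genes (7.13%) and above them for 1725 genes (16.2%). Without the block, unadjusted calls stayed under the share of 0.05 that unchanged genes would give, and with it they came near that share. Under exchanged labels, 2 against 2 libraries separate in either direction with a share of 0.333, which these separations did not reach. Groups that do not overlap are therefore no sign of a change by themselves. The median over all genes was 0.13 on the log2 scale, so that list medians below are to be read against that value. Scaling the libraries to their median ratio brought it to -0.0029 and turned the split at an unadjusted p under 0.05 from 59% higher to 43.8% higher (106 higher and 136 lower genes).

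Genes lower after Nr2c2 siRNA alone stood lower here as well. Each receptor had also been knocked down singly at 8C, in libraries with NC pools of their own, and the study listed the genes that changed in each. Of the 75 genes listed as lower after Nr2c2 siRNA alone, all 75 were tested here, and their median was -0.42 on the log2 scale against 0.13 for all genes. Within replicate numbers the median was -0.30 for replicates 1 and -0.50 for replicates 2. It was -0.20 without NC replicate 2 and -0.23 without KD replicate 1, and -0.59 with 55 of 75 genes below 0 under median-ratio scaling. Both KD pools were below both NC pools for 24 of them (32.0%, against 7.13% of all genes) and above for 4 (5.33%, against 16.2%), and 13 were lower at an unadjusted p under 0.05 (against 0.969% of all genes). The list includes Nr2c2 itself and, from the Y chromosome, 2 genes.

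These 75 genes were then followed across the siRNA mixes, which share the NC pools. Their median against NC was -0.49 in the mix without Rarg siRNA and -0.36 in the mix without Nr1h3 siRNA, the other two mixes that contained Nr2c2 siRNA. In the mix without Nr2c2 siRNA it was 0.13, near the 0.11 of all genes in that mix. Members with both KD pools below both NC pools numbered 27, 21 and 8 in these 3 groups, where 12.5%, 12.2% and 12.3% of all genes were.

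The lists of the other two targets lay above the median of all genes. The 72 genes lower after Rarg siRNA alone had a median of 0.28, and 1 of them (1.39%) had both KD pools below both NC pools while 18 (25.0%) had both above, against 7.13% and 16.2% of all genes. The 120 genes lower after Nr1h3 siRNA alone had a median of 0.24, with 9 below (7.5%) and 23 above (19.2%), near the shares of all genes. The median of the 223 genes on any of the 3 lists was 0.08, and it changed sign under median-ratio scaling (-0.06). The genes listed as higher in the single KDs had medians of -0.03 for Rarg, 0.11 for Nr1h3 and 0.10 for Nr2c2.

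**Figure D2:**
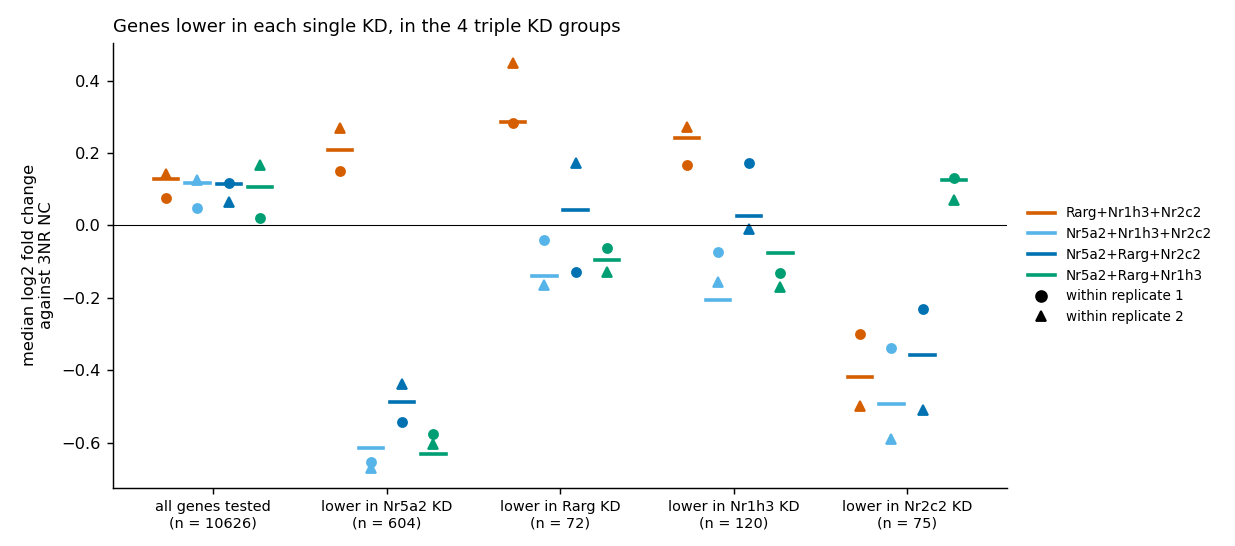
Median log2(FPKM + 1) difference from NC (vertical axis) of the genes listed as lower in each single KD, with all genes tested beside them, in the 4 triple KD groups. Bars are the median over genes of the group difference, circles and triangles the medians within replicates 1 and 2, and the Nr2c2 list is at -0.42 in the Rarg/Nr1h3/Nr2c2 KD while the Nr5a2 list is at 0.21.

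Some of the 75 genes listed as lower after Nr2c2 siRNA alone encode mitochondrial proteins. Those named below were chosen by their values. The share of mitochondrial genes on the list was not counted or compared with that among all genes. Ndufs6, a subunit of respiratory complex I (mm9 chr13:73457286-73465990, minus strand), stood at 238 and 470 FPKM in NC and at 103 and 150 FPKM in KD. The groups did not overlap, and the log2 difference was -1.42 ± 0.45 (SE), with an unadjusted limma p of 0.00918 and an adjusted p of 1. Its level was 77.9 to 134 FPKM in the other two mixes with Nr2c2 siRNA, and 336 and 397 FPKM in the mix without. In the single KD experiment it was 34.1 and 93.6 FPKM after Nr2c2 siRNA and 306 to 498 FPKM in the other 8 libraries.

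Slirp, which encodes an RNA-binding protein of mitochondria, stood at 256 and 502 FPKM in NC and at 93.1 and 168 FPKM in KD. Parl, which encodes a protease of the inner mitochondrial membrane, stood at 25.6 and 79.8 FPKM in NC and at 11.8 and 16.4 FPKM in KD. Etfdh, which passes electrons from fatty acid oxidation to ubiquinone, stood at 7.97 and 11.9 FPKM in NC and at 3.26 and 4.53 FPKM in KD. For all 3 genes both KD pools were below both NC pools, by -1.51, -1.64 and -1.15 on the log2 scale. Unadjusted limma p-values were 0.0209, 0.0124 and 0.0534, or 0.000213, 0.0016 and 0.0271 with the replicate block. None passed adjustment in either fit. The mix without Nr2c2 siRNA held 249 and 611 FPKM of Slirp, 35.4 and 36.9 FPKM of Parl and 12.5 and 11.1 FPKM of Etfdh. Parl, like Mdh1, is also among the genes listed as lower after Nr5a2 siRNA alone. In the single KD experiment Parl stood at 64.9 and 37.3 FPKM in NC, 5.6 and 7.77 FPKM after Nr2c2 siRNA, 28.5 and 16.3 FPKM after Nr5a2 siRNA and 23.4 and 25.7 FPKM after Rarg siRNA.

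Sdhd, a subunit of succinate dehydrogenase, stood at 26.5 and 60.6 FPKM in NC and at 2.27 and 22.1 FPKM in KD. The KD pools lay below both NC pools but differed widely from each other, and the mix without Nr1h3 siRNA, at 38.2 and 25.4 FPKM, overlapped NC. Chchd1, a mitochondrial ribosome component, stood at 109 and 254 FPKM in NC and at 88.7 and 94.3 FPKM in KD (unadjusted limma p = 0.0897). It too overlapped NC in the mix without Nr1h3 siRNA, at 112 and 115 FPKM. Outside mitochondria, Ranbp1, a regulator of the Ran GTPase in nuclear transport, stood at 307 and 731 FPKM in NC and at 200 and 188 FPKM in KD. Igbp1, a partner of protein phosphatase 2A, stood at 71.4 and 131 FPKM in NC and at 32.4 and 51.3 FPKM in KD. Between KD and NC, none of these genes had overlapping groups. Ranbp1 shares 54 bases with Trmt2a on the other strand.

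**Figure D3:**
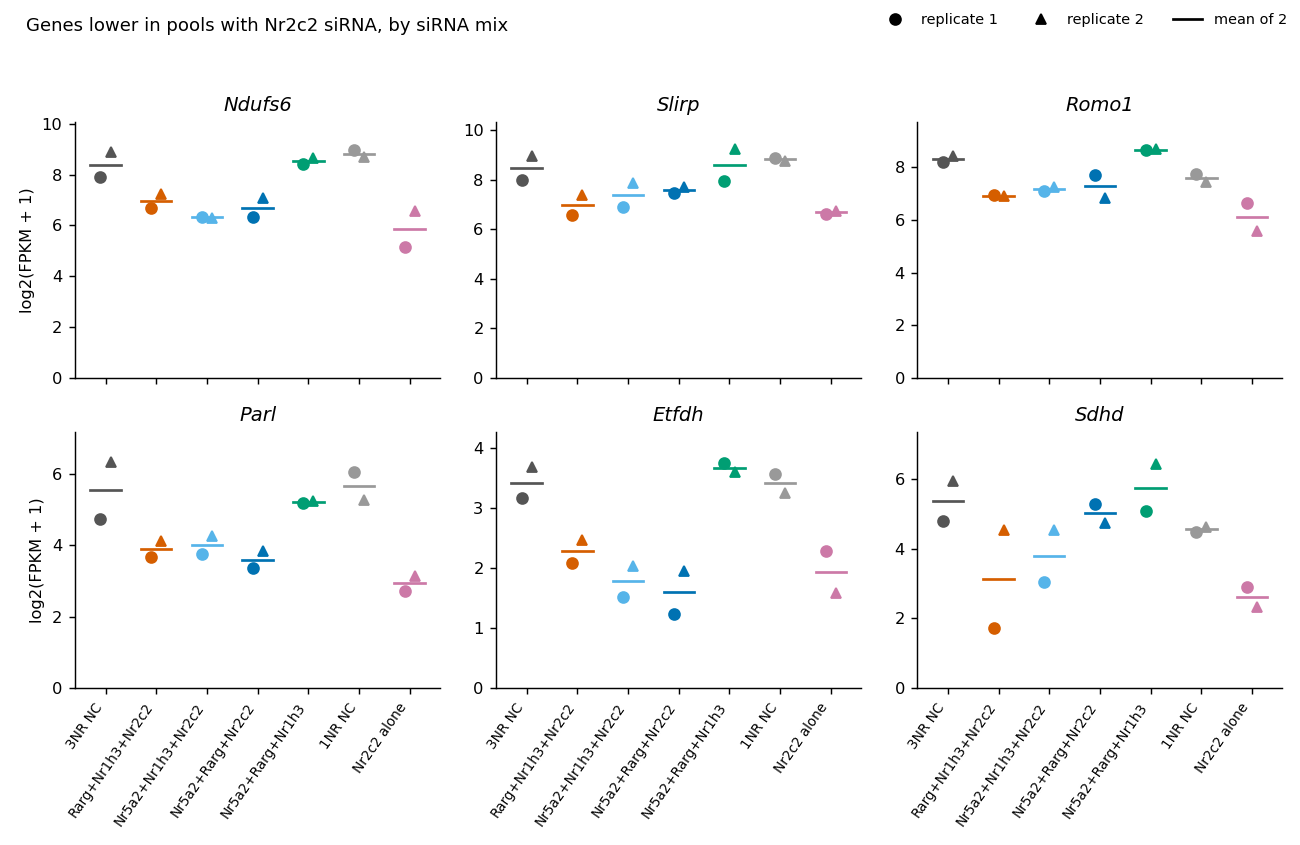
log2(FPKM + 1) (vertical axis from 0) of Ndufs6, Slirp, Romo1, Parl, Etfdh and Sdhd in the NC group and 4 siRNA mixes of the triple KD experiment, and in the NC group and Nr2c2 KD of the single KD experiment, with 1 point per library (circle, replicate 1, and triangle, replicate 2) and a bar at the mean of 2. Ndufs6 corresponds to 103 and 150 FPKM in the Rarg/Nr1h3/Nr2c2 KD and to 336 and 397 FPKM in the mix without Nr2c2 siRNA, and the genes shown were chosen after their values were seen.

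The medians of mitochondrial gene lists stood near that of all genes. Over all genes tested, 7.13% had both KD pools below both NC pools and 16.2% had both above. Of 79 oxidative phosphorylation subunits tested, 3 had both KD pools below both NC pools (Ndufs6, Sdhd and Cox8c, all at an unadjusted p under 0.05) and 8 had both above, with a median of 0.12 against 0.13 for all genes. The 77 mitochondrial ribosomal proteins, a list that does not hold Chchd1, had a median of 0.10, with 0 below and 7 above. The 10 tested genes known to be regulated by NR2C1 or NR2C2 in other tissues had a median of 0.08, with 2 below and 1 above.

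A further comparison, added after the data had been seen, set the 6 libraries of the 3 mixes with Nr2c2 siRNA against the 4 libraries without it. No gene passed an adjusted p of 0.05 (0%, limma, against 158 lower and 130 higher genes, or 1.49% and 1.22%, at an unadjusted p under 0.05). Under the replicate block, 8 genes were lower (0.0753%) and 1 was higher (0.00941%). The lower genes included Ndufs6 (log2 difference -1.79 ± 0.29 SE, limma adjusted p = 0.123 without and 0.00727 with the block), Slirp (-1.24 ± 0.36 SE, 1 and 0.0361) and Romo1 (-1.37 ± 0.26 SE, 0.321 and 0.0357). Romo1, a small protein of the inner mitochondrial membrane, stood at 292 and 341 FPKM in NC and at 123 and 119 FPKM in KD, and it overlaps Nfs1, a gene on the list, by 148 bases. The other lower genes were Rhox9, Rhox3g, Msantd4, Ccdc84 and Retnlg, and the higher gene was the Y-linked Eif2s3y. Among the libraries without Nr2c2 siRNA, Eif2s3y was low in NC only, at 0 and 3.77 FPKM. The mix without Nr2c2 siRNA held 12.5 and 33.8 FPKM, against 19.4 to 77.8 FPKM in the mixes with it.

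All 6 libraries with Nr2c2 siRNA were below all 4 without for 33 genes (0.311%), and 9 of the 75 listed genes were among them: Etfdh, Igbp1, Mdh1, Myg1, Ndufs6, Nr2c2, Parl, Ranbp1 and Slirp. Mdh1, the cytosolic malate dehydrogenase, stood at 9.25 and 15.5 FPKM in NC and at 2.71 and 7.43 FPKM in KD. For Nr1h3 siRNA the same comparison gave 1 gene with the block, Nr1h3 itself (log2 difference -3.34 ± 0.42 SE, limma adjusted p = 0.0613 without and 0.0177 with the block), and for Rarg siRNA none at an adjusted p of 0.05 with or without the block. At an unadjusted p under 0.05 these comparisons gave 211 genes (1.99%) and 192 genes (1.81%).

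Promoters of these genes, 250 bases before to 50 bases after the RefSeq start, were searched on both strands for direct repeats of GGTCA, named DR1, DR4 and DR5 for the bases between the full hexamers. The DR1 pattern NGGTCANNGGTCA was in 3 of 53 listed genes with a promoter sequence (Ndufs6, Ranbp1 and Wfdc15a, 5.66%) and in 23 of 8062 tested genes (0.285%). The DR4 pattern NGGTCANNNNNGGTCA was in Chchd1 and in 2 of 8062 tested genes (0.0248%), and the DR5 pattern NGGTCANNNNNNGGTCA in 0 of the 53 and in 4 of 8062. The following sequences are shown since they carry the repeats in genes with lower levels in both KD pools. They run 5′ to 3′ on the strand of the gene, 190 bases before to 30 bases after the start, in RefSeq build GRCm38.p6, with the matched repeat in capitals. The match begins 15 bases after the start in Ndufs6, 24 bases before it in Ranbp1 and 8 bases before it in Chchd1.
Ndufs6 (chr13:73328453-73328672, minus strand): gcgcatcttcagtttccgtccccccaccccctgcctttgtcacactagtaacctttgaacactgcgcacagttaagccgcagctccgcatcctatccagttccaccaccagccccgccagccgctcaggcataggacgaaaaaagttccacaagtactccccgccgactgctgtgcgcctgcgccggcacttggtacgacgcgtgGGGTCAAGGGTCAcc
Ranbp1 (chr16:18248665-18248884, minus strand): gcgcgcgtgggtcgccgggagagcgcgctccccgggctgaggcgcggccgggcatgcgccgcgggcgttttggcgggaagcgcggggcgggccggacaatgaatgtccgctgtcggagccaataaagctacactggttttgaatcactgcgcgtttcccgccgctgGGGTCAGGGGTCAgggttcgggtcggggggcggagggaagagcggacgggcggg
Chchd1 (chr14:20702837-20703056, plus strand): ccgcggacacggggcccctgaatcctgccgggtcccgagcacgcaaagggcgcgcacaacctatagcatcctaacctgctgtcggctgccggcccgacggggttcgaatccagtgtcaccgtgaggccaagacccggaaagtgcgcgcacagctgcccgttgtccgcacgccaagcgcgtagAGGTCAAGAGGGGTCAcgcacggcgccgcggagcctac
A match describes the letters only, and binding of a receptor was not measured in these libraries.

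The 24 largest differences between KD and NC, 12 in each direction, were taken by size among genes with an unadjusted p under 0.05, a mean of at least 5 FPKM, groups that did not overlap and the same direction within both replicate numbers. Beside Nr1h3 and Sdhd, lower genes included Ccdc84 at 13 and 13.2 FPKM in NC and 1.47 and 1.96 FPKM in KD (mm9 chr9:44218249-44226090). Mfap3, a microfibril-associated protein, stood at 7.54 and 9.08 FPKM in NC and at 1.12 and 0.511 FPKM in KD. Tmsb4x, the X-linked actin-sequestering thymosin beta 4, stood at 9.43 and 30.8 FPKM in NC and at 3.74 and 1.87 FPKM in KD. Their log2 differences were -2.38, -2.37 and -2.30, with unadjusted limma p-values of 0.000864, 0.00433 and 0.0103. None of the 24 genes passed adjustment. Ccdc84 was also low in the other two mixes with Nr2c2 siRNA (0.275 to 2.42 FPKM) and after Nr2c2 siRNA alone (0.35 and 0.386 FPKM), and it shares 240 bases with Rps25 on the other strand.

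Among the higher genes, Atp6v0c, a proton channel subunit of the vacuolar ATPase, stood at 18.3 and 24.0 FPKM in NC and at 107 and 63.3 FPKM in KD. It stood at 74.5 to 147 FPKM in the other 6 triple KD libraries and at 67.4 and 72.4 FPKM in the NC pools of the single KD experiment, all above the NC pools used here. Pdk3, a kinase that inhibits pyruvate dehydrogenase, stood at 0 and 2.22 FPKM in NC and at 6.93 and 6.27 FPKM in KD. Dgat1, which makes triglycerides, stood at 0.389 and 2.85 FPKM in NC and at 8.67 and 11.2 FPKM in KD. Other leading genes belong to multicopy families (Rhox9, Xlr and Stfa2l1 among the lower, Magea10, Spin2c and Oog1 among the higher), and their FPKM are uncertain where near-identical copies share reads.

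Genes of the X and Y chromosomes were counted among the differences. Of the 12 leading lower genes 6 were X-linked, against 391 of 9771 tested genes with a position (4.0%), and among genes with both KD pools below both NC pools 68 of 695 were (9.78%). Of the 12 leading higher genes 10 had a position, with 3 on X and 1 on Y, and among genes with both KD pools above both NC pools 37 of 1605 were X-linked (2.31%). The median of X-linked genes was -0.08 against 0.13 for all genes. The Y-linked Eif2s3y, a translation initiation factor gene, stood at 0 and 3.77 FPKM in NC and at 19.4 and 29.3 FPKM in KD. Uba1y, another Y-linked gene, stood at 0 and 0.171 FPKM in NC and at 4.32 and 4.8 FPKM in KD. The mean of all 6 Y-linked genes tested was higher in KD. Both KD pools were above both NC pools for 3 of them, where 16.2% of all genes were. Among these, Uty was near the floor at 0, 0.154, 0.228 and 0.469 FPKM. Ddx3y, Kdm5d and Zfy2 overlapped between groups. Xist, expressed from the inactive X chromosome of female cells, stood at 43.6, 2.58, 1.08 and 3.38 FPKM. The Y-linked list was added after the data had been seen. Y-linked levels follow the share of male embryos in a pool. Those of Eif2s3y and Uba1y moved with the groups, and the part of this share in the differences of other genes was not tested. Of the 75 genes lower after Nr2c2 siRNA, 3 were X-linked.

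**Figure D4:**
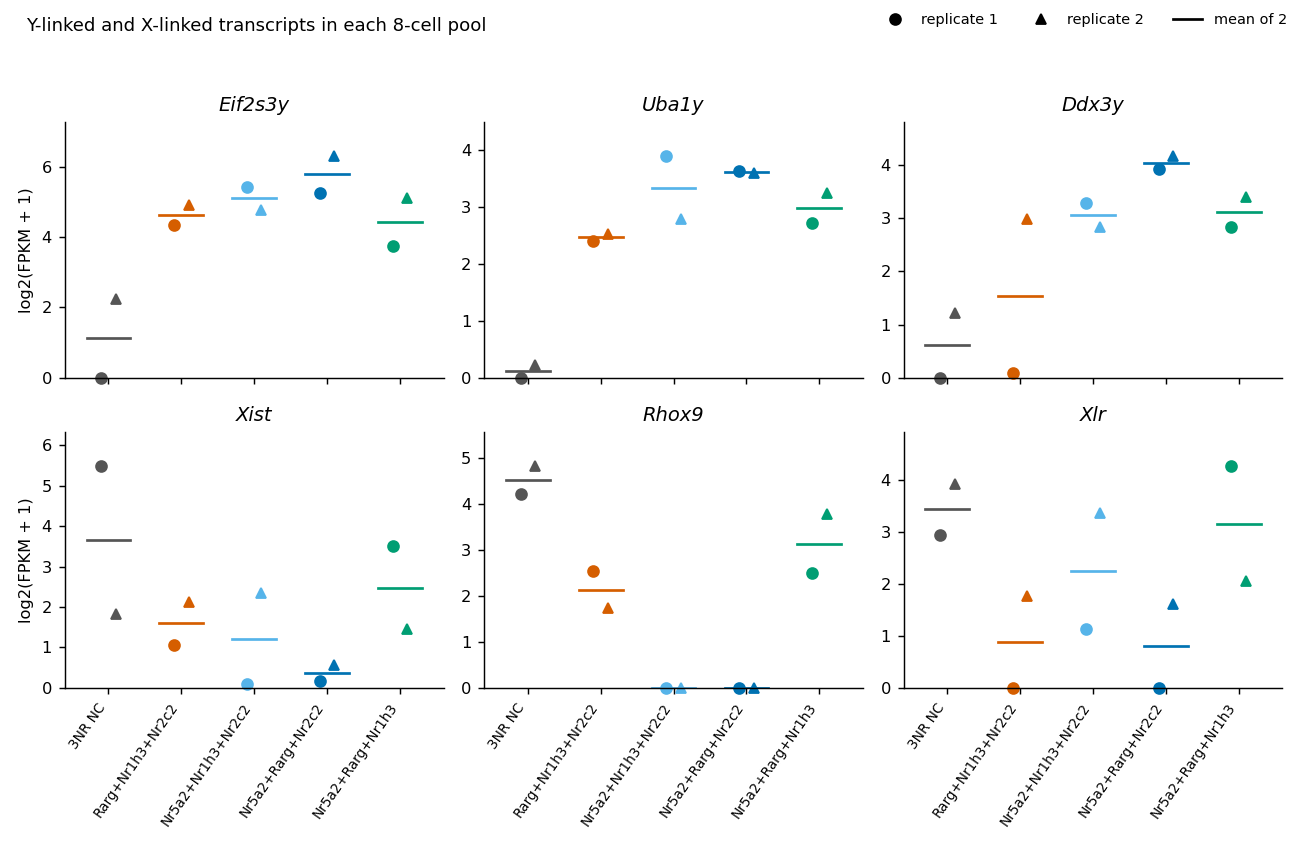
log2(FPKM + 1) (vertical axis from 0) of the Y-linked Eif2s3y, Uba1y and Ddx3y and the X-linked Xist, Rhox9 and Xlr in the NC group and the 4 siRNA mixes, with 1 point per library (circle, replicate 1, and triangle, replicate 2) and a bar at the mean of 2. Eif2s3y corresponds to 0 and 3.77 FPKM in NC and to 12.5 FPKM or more in every other library, and Xist is highest in NC replicate 1 at 43.6 FPKM.

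Lineage genes named by the study for 8C embryos were next compared. Pou5f1, which encodes the pluripotency factor OCT4, stood at 71.2, 24.3, 77.5 and 49.0 FPKM, and Nanog at 15.7, 13.7, 14.4 and 24.7 FPKM. Tdgf1, a Nodal co-receptor, stood at 46.6, 97.2, 49.5 and 80.9 FPKM, against 2.49 to 18.0 FPKM in the groups with Nr5a2 siRNA. Groups overlapped for each of these genes between KD and NC. Klf5, a factor of both the inner cell mass and trophectoderm programs, stood at 40.1 and 30.2 FPKM in NC and at 54.1 and 53.6 FPKM in KD, without overlap but with an unadjusted limma p of 0.184. Gata6, a primitive endoderm factor, stood at 18.4 and 26.1 FPKM in NC and at 14.8 and 17.2 FPKM in KD, likewise without overlap and with an unadjusted p of 0.554. Tead4, a trophectoderm regulator, and Id3, an inhibitor of helix-loop-helix factors, overlapped at 55.6, 32.4, 47.7 and 60.9 FPKM and at 375, 523, 366 and 612 FPKM.

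Among functional groups, no member of any list passed an adjusted p of 0.05 between KD and NC in limma. Of 27 pluripotency factors, 0 had both KD pools below both NC pools and 6 had both above, with a median of 0.27, where 7.13% of all genes were below and 16.2% above and their median was 0.13. For 17 trophectoderm regulators and keratins the counts were 1 and 5 with a median of 0.48, for 16 Hippo pathway genes 0 and 5 with 0.33, and for 21 p53 response genes 1 and 9 with 0.46. Glycolysis, pyruvate use and the TCA cycle, with 41 genes, had 2 below and 12 above and a median of 0.31. Against the mixes with Nr5a2 siRNA, medians were -0.06 for p53 response and 0.04 for Hippo pathway genes, near the -0.0014 of all genes. In that comparison they were 0.34 for pluripotency factors, 0.16 for the trophectoderm list and 0.22 for the glycolysis list. The 60 genes that the study lists as activated at the 4-cell or 8-cell stage had 6 below and 5 above, with a median of 0.19, which turned to -0.06 without NC replicate 1. The 527 genes listed as activated at the late 2-cell stage had a median of 0.16.

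Pathways downstream of the targeted receptors were compared in the same way. LXR targets and lipogenic genes, 21 tested, had 2 below and 3 above with a median of 0.10, where 7.13% of all genes were below and 16.2% above. Fads2, a fatty acid desaturase on this list, stood at 0.701 and 1.45 FPKM in NC and was listed at 0 in both KD pools (unadjusted limma p = 0.0383). For 27 genes of cholesterol synthesis and uptake the counts were 4 and 1 with a median of 0.04, although Dhcr7, the last enzyme of the pathway, stood at 2.78 and 2.3 FPKM in NC and at 9.49 and 7.51 FPKM in KD (unadjusted limma p = 0.0281). Of 10 genes of retinoic acid handling and response, 0 were below and 2 above, with a median of 0.28.

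Sparing Nr5a2 set this group apart from the 3 triple KD groups that received Nr5a2 siRNA, a comparison that uses no NC library. At an adjusted p under 0.05, limma gave 27 higher genes (0.254%) and 3 lower genes (0.0282%), or 181 (1.7%) and 81 (0.762%) under the replicate block. At the study's limits it gave 0 genes (0%, against 641 higher and 434 lower genes at an unadjusted p under 0.05, or 6.03% and 4.08%) and 39 (0.367%) with the block. Leaving out any single one of the 8 libraries compared left 0 to 2 genes at an adjusted p under 0.05. Against NC, the 27 higher genes had a median of 0.39, with 15 overlapping NC, 11 above it and 1 below. Of all genes tested, 16.2% were above NC and 7.13% below. The 27 genes were chosen for high values in these same KD pools, which by itself favors values above NC. Their position against NC is therefore a description only.

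Psme1, an activator subunit of the proteasome (mm9 chr14:56196960-56200366, plus strand), stood at 68.8 and 131 FPKM in NC, at 68.9 and 104 FPKM in the Nr5a2-spared KD and at 0 to 8.97 FPKM in the other 6 libraries. In the Nr5a2-spared KD it stood 4.92 ± 0.56 (SE) above the mean of the other mixes on the log2 scale (limma adjusted p = 0.0115). S100a3, a calcium-binding protein, stood at 45.3 and 133 FPKM in NC, at 52.6 and 80.3 FPKM in the Nr5a2-spared KD and at 1.15 to 5.59 FPKM elsewhere. Tdh, the threonine dehydrogenase of pluripotent mouse cells, stood at 51.7 and 40.2 FPKM in NC, at 37.3 and 33.9 FPKM in the Nr5a2-spared KD and at 0.787 to 4.93 FPKM elsewhere. Prl3b1, a placental lactogen, stood at 85.7 and 276 FPKM in NC, at 57.0 and 104 FPKM in the Nr5a2-spared KD and at 2.34 to 13.8 FPKM elsewhere. In each of these genes the Nr5a2-spared pools lay above all 6 others, with limma adjusted p-values of 0.0115 for S100a3, 0.0221 for Tdh and 0.0359 for Prl3b1.

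Susd3 stood at 16.9 and 28.2 FPKM in NC, at 57.1 and 27.5 FPKM in the Nr5a2-spared KD and at 1.45 to 4.89 FPKM elsewhere (limma adjusted p = 0.0155). Higher genes also included Sdc4, a syndecan, Mbl2, a mannose-binding lectin, and Cdc42ep5, an effector of the GTPase CDC42. Metabolic genes among the 27 were Idh1, the cytosolic isocitrate dehydrogenase, at 128 and 115 FPKM against 8.6 to 29.8 FPKM elsewhere, Gulo of vitamin C synthesis, at 198 and 217 FPKM against 35.2 to 94.1 FPKM, and Cat, the peroxisomal catalase, at 5.99 and 4.87 FPKM against 0 to 1.33 FPKM. All of these levels lay above the 6 other libraries. The lower genes were Crip1, a LIM-domain protein, at 137 and 72.3 FPKM against 577 to 1080 FPKM, Cd24a, a cell surface glycoprotein, at 8.14 and 18.2 FPKM against 46.4 to 189 FPKM, and Thap11, a zinc-finger factor, at 1.99 and 5.17 FPKM against 16.9 to 31.1 FPKM.

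**Figure D5:**
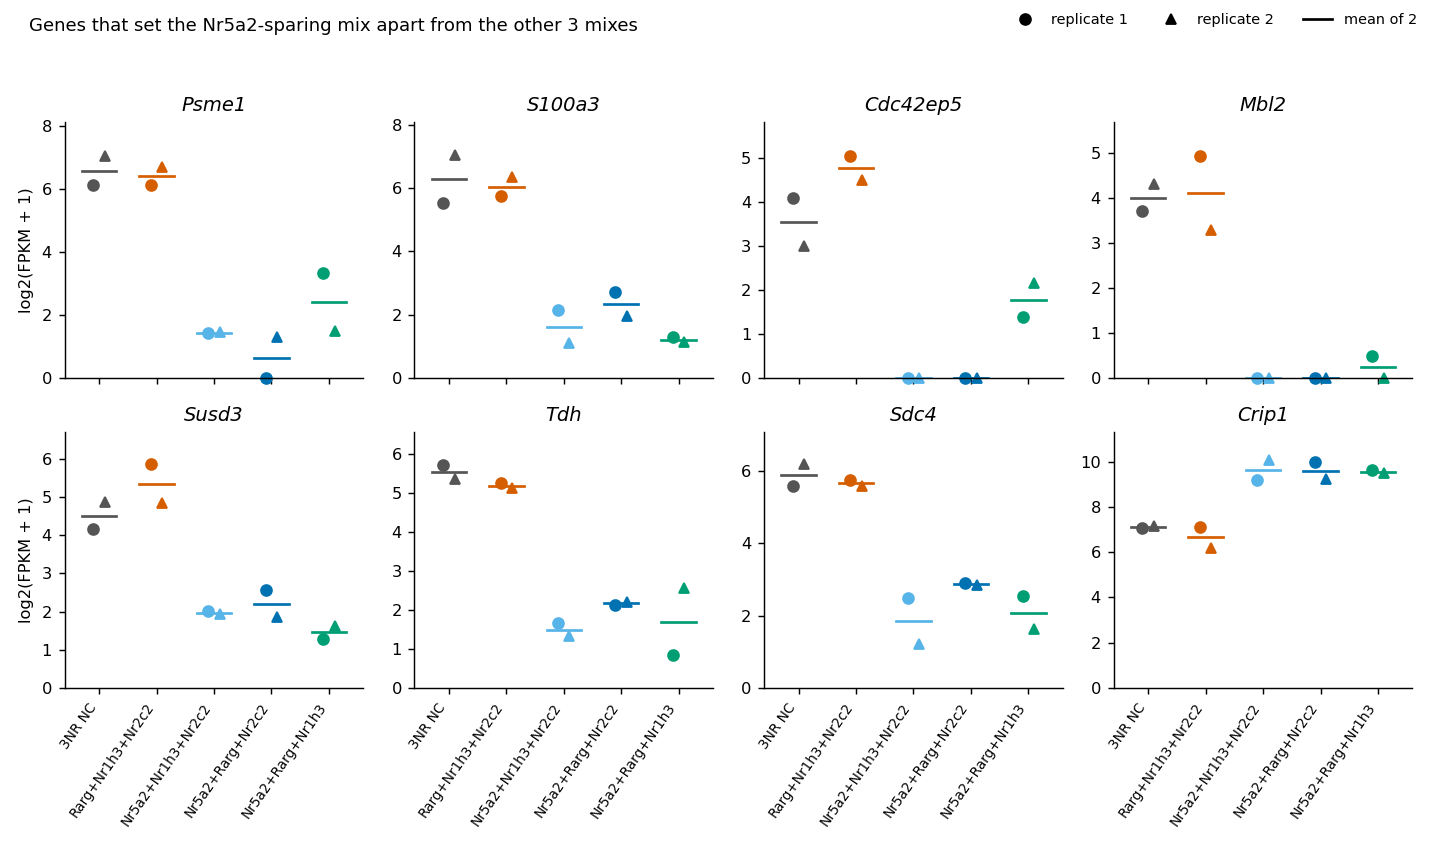
log2(FPKM + 1) (vertical axis from 0) of 7 higher genes and the lower gene Crip1, which differ between the Rarg/Nr1h3/Nr2c2 KD and the 3 mixes with Nr5a2 siRNA, with 1 point per library (circle, replicate 1, and triangle, replicate 2) and a bar at the mean of 2. Psme1 corresponds to 68.9 and 104 FPKM in the Nr5a2-spared KD and to no more than 8.97 FPKM in the other mixes, and Crip1 to 137 and 72.3 FPKM against at least 577 FPKM.

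The genes of the single Nr5a2 KD followed the same division. The 604 genes listed as lower after Nr5a2 siRNA alone had a median against NC of 0.21 in the Nr5a2-spared KD, with 25 having both KD pools below both NC pools (4.14%) and 129 both above (21.4%), against 7.13% and 16.2% of all genes. Their medians were -0.61, -0.49 and -0.63 in the mixes without Rarg, Nr1h3 and Nr2c2 siRNA. Of the 27 genes higher than in the other mixes, 13 were on this list, which holds 604 of the 10626 genes tested.

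The sequence CAAGGTCA, the kind of site NR5A2 binds, was in 2 of 22 promoters of the higher genes (Prl3b1 and Susd3, 9.09%) and in 102 of 8062 tested genes (1.27%). These promoters are shown on the same window and build, with the site in capitals, because both genes stood above all libraries with Nr5a2 siRNA. The site begins 156 bases before the start in Susd3, and 55 bases before it in Prl3b1, where it reads in the opposite direction.
Susd3 (chr13:49248265-49248484, minus strand): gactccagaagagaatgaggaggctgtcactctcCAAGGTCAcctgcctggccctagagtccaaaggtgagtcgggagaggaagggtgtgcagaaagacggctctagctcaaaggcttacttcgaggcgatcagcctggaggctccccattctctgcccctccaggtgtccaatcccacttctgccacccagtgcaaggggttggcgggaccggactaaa
Prl3b1 (chr13:27242240-27242459, plus strand): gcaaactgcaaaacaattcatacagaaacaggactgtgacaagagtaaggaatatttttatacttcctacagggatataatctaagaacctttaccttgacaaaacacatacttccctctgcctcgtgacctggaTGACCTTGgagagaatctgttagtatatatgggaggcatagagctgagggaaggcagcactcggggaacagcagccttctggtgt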

How the data were processed

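The deposited values are FPKM per gene, which the authors made from paired-end Smart-seq2 reads with TopHat and Cufflinks and a RefSeq annotation of mm9, per the methods. The submitters' processing notes for the series name Bowtie2 2.2.2, CASAVA 1.8, MACS 1.4.2 and bedtools 2.29.0. FPKM carry no counts, so the depth per library is unknown, and no interval from counting can be given. The steps between low values gave relative depths of 0.856 to 1.2 over the 10 libraries of the experiment.

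The authors tested counts with edgeR. Here log2(FPKM + 1) was fitted in limma 3.58.1 (R 4.3.3) with a variance trend over the 10 libraries of 5 groups, for genes with a mean of at least 1 FPKM in a group, two-sided, with Benjamini-Hochberg adjustment. An exact permutation test of 2 against 2 cannot go below p = 0.333, so none was used. The same fit gave KD against the mean of the 3 mixes with Nr5a2 siRNA. Deviations from group means correlated between same-numbered libraries in all 10 pairs of groups (r = 0.278 to 0.513, 0.395 for KD and NC), so the replicate number marks pairs, and a fit with it as a block is given where it changed a count. The fits were tested on simulated data.

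Named genes were the receptors and their partners, lineage genes the study names, the 12 largest differences per direction among genes at an unadjusted p under 0.05 with at least 5 FPKM, separate groups and a difference of at least 0.5 within each replicate number, up to 4 separated members per list, and up to 8 genes per direction against the other mixes. Genes of the Nr2c2 list and metabolic genes outside this rule were chosen after their values were seen. Members and lists were chosen with earlier results of these data known. The comparisons of libraries with and without each siRNA and the Y-linked list are later additions, made once the data were known. Lists of single KD and stage-specific genes, with the direction, were taken whole from the study's supplementary tables. For Nr5a2 that table holds fewer genes than the study's text counts, and no gene was removed here. The p-values in those tables were not used. Gene positions are from the GENCODE annotation of mm9.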

Additional observations from a re-analysis of the deposited data

How the results depend on the processing

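Between KD and NC, the count at the study's limits was 0, and it became 238 at an unadjusted p under 0.05 with a log2 change of at least 1. The count at an adjusted p under 0.05 was 4 without a filter on low values. Against the mixes with Nr5a2 siRNA, the count at the study's limits became 39 with the replicate block and 888 at the unadjusted limit. The 30 genes at an adjusted p under 0.05 became 13 with a pseudocount of 0.1, 10 without the filter and 262 with the replicate block. With against without Nr2c2 siRNA, the count of 0 became 1 with a pseudocount of 0.1, with median-ratio scaling or with no variance trend, 9 with the replicate block, and 0 to 1 when a library was left out.

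Under median-ratio scaling the list medians became 0.0708 (activated at 4C or 8C), 0.0356 (lower in Nr5a2 KD), -0.0589 (lower in any of the 3 single KDs, reversed) and -0.589 (lower in Nr2c2 KD). Leaving out a library gave ranges of -0.061 to 0.154, 0.178 to 0.267, -0.0361 to 0.18 and -0.568 to -0.2. Nr5a2 against NC turned to -0.12 under scaling, -0.193 without NC replicate 2 and -0.19 without KD replicate 1, and Rarg to 0.355 without NC replicate 1, within ranges of -0.193 to 0.307 and -2.19 to 0.355 when a library was left out. The cause of these shifts was not tested. With against without Nr1h3 siRNA, the replicate block turned the count of 0 at an adjusted p under 0.05 into 1, Nr1h3 itself. The block changed no other call. A fit of only the groups compared was not run for the comparisons over several mixes.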
